A study of Mus musculus with 2 samples.

Results

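The cytosolic ribosomal protein genes were taken from the deposited table as the rows whose symbol is Rpl or Rps with a number and, where present, a short paralog ending, or is Rplp0, Rplp1, Rplp2 or Rpsa. Pseudogenes and predicted gene models were left out. The rule found 85 of the 18888 genes of the table, 33 of the small subunit and 52 of the large subunit. Of these, 77 were the canonical genes of 77 ribosomal proteins and 8 were paralogs. Some canonical genes, Fau and Rack1 among them, fall outside the rule by their names.

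The cells were 46C mouse embryonic stem cells (mESCs) at passages 21 to 24, grown on gelatin in conventional mESC medium, and their RNA was sequenced in 2 libraries. The PB library came from cells with the empty PiggyBac vector. The PB-TERRA library came from cells in which this vector carries telomeric repeats and gives polyadenylated TERRA, the noncoding RNA of telomeres. Whether either culture was a clone or a pool is not given in the sources used here, and each condition has 1 library, so no spread between replicates can be estimated and no test is given.

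Every ribosome holds 1 copy of most ribosomal proteins, and their genes are among the most strongly transcribed of a growing cell. The small subunit reads the mRNA, and the large subunit joins amino acids and guides the new chain out through a tunnel. Most ribosomal protein mRNAs begin with a cytosine and a run of pyrimidines, called the TOP motif, through which mTORC1 and Larp1 adjust their translation. Many of the genes have processed pseudogenes, copies of the mRNA inserted elsewhere in the genome.

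The start sites of the members whose levels are described below are shown first, because the pyrimidine run is the sequence most of them are known for. Each stretch is 30 bases of the RefSeq genome GRCm38.p6, 5′ to 3′ on the strand of the gene, with the annotated start at base 16. Capitals mark the longest run of pyrimidines in the stretch. They were chosen to show long and short runs, Rpl7a as a member with a long one.
Rpl7a, chr2:26910792-26910821, + strand: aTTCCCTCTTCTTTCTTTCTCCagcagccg
Rpl35, chr2:39005117-39005146, - strand: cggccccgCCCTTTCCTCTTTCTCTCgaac
Rpl15, chr14:18270972-18271001, - strand: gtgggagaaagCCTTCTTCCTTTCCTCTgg
Rps10, chr17:27635230-27635259, - strand: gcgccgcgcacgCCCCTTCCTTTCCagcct
Rpl28, chr7:4792950-4792979, + strand: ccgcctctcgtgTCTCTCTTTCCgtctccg
Rps6, chr4:86857353-86857382, - strand: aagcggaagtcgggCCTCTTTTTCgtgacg
Rpl39l, chr16:10170213-10170242, + strand: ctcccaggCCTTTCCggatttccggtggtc
Rpl36al, chr12:69184053-69184082, - strand: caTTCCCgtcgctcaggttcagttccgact
Rpl41, chr10:128549154-128549183, - strand: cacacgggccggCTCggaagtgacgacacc

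The run was 21 bases long in Rpl7a and 3 bases long in Rpl41. Both genes were strongly expressed, Rpl7a with 1612 FPKM in PB and 1504 FPKM in PB-TERRA. A start sequence was found in RefSeq for 64 of the 85 members. At least 8 pyrimidines in a row stood within 25 bases of a start in 33 of these 64, or 51.6%, and in 22.3% of all 27025 genes of that table. The letters CCGGAAG, on either strand from 250 bases before to 50 bases after the start, were found in 40.6% of the members and in 9.93% of all genes. The letters AAGATGGC were found in 9.38% of the members and 3.19% of all genes. TATAAA on the sense strand, 15 to 40 bases before the start, stood in 1.56% of the members and 2.41% of all genes. A match is a description of the letters in this window and no evidence of binding.

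The ribosomal protein genes were among the most abundant mRNAs of both libraries. Levels are in FPKM, mapped fragments divided by gene length and library depth, a unit that allows genes of different length to be compared. The median member had 981 FPKM in PB and 896 FPKM in PB-TERRA, and 75 members had at least 100 FPKM in PB. Of the 81 genes of the table with at least 1000 FPKM in PB, 42 were members, as were 50 of the 100 highest genes. Summed over members, the level was 82378 FPKM in PB and 76190 FPKM in PB-TERRA, which was 16.6% and 15.7% of the sum of the table.

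Rps26, a small subunit protein at the channel where the mRNA leaves, had the highest level, 3085 FPKM in PB and 2844 FPKM in PB-TERRA. Rpl41 followed with 3066 and 2767 FPKM. It encodes one of the smallest known proteins, and its coding sequence in GENCODE M21, chr10:128548390-128548960 on the - strand of GRCm38 (stop codon outside this interval), has 25 codons before the stop. The other members with the highest mean levels were Rpl23a, the protein to which the signal recognition particle docks at the tunnel exit (2722 and 2595 FPKM), Rpl35, its neighbour at the exit (1956 and 1835 FPKM), Rpl4, which lines the tunnel (1903 and 1806 FPKM), Rpl12 of the stalk base (1839 and 1732 FPKM), Rpl28 (1788 and 1748 FPKM) and Rps12 (1699 and 1663 FPKM). In each of these 8 genes the PB-TERRA value was the lower one as deposited. On rescaling to the same summed FPKM the log2 ratio of Rpl28 was 0.0051 and that of Rps12 was 0.0075, and both were also above 0 with the length shift taken off (0.0080 and 0.011). Rpl35 had 0.02 with GC content and length taken off.
Rpl41: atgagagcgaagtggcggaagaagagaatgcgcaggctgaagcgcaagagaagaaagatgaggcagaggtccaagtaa

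**Figure D1:**
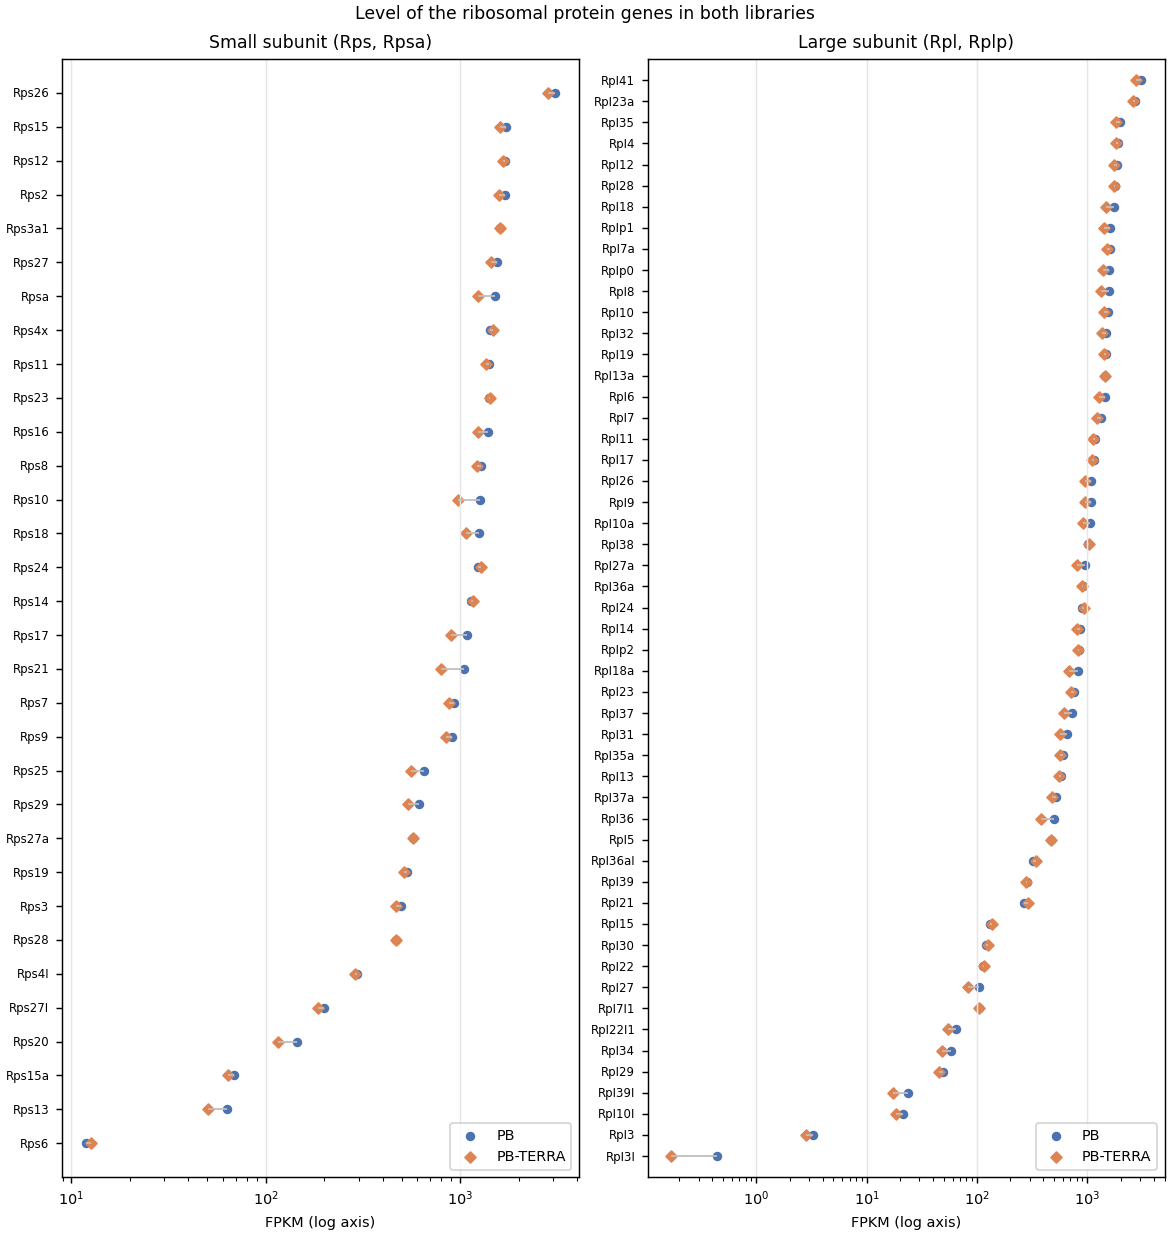
FPKM of the small subunit genes (left, 1 of 33 not shown) and the 52 large subunit genes (right) in PB (circles) and PB-TERRA (diamonds), 1 library each, on log axes that differ between the panels. Most pairs of points lie close together above 100 FPKM, and 10 members lie below this level in PB.

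The lowest levels belonged in part to canonical genes. Rpl3, a core protein next to the peptidyl transferase centre, was listed at 3.26 FPKM in PB and 2.84 FPKM in PB-TERRA. Rps6, the protein that S6 kinases phosphorylate, was listed at 11.8 and 12.5 FPKM. These values lie far below those of proteins present in the same number in each ribosome. The table also holds 137 rows that carry the KEGG orthology number of a member but are no members, 115 predicted models and 22 genes named as pseudogenes or Gm genes. Together they had 18222 FPKM in PB and 15974 FPKM in PB-TERRA, a log2 ratio of -0.19.

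When rows were summed over each of the 77 protein families, 12 families had over 50% of their PB level in such rows. For the Rpl3 family the share was 99.7%. A predicted model of 1349 bases with the KEGG number of Rpl3 had 1250 FPKM in PB and 1115 FPKM in PB-TERRA. For Rps6 the share was 99.4%, and a predicted model had 2072 and 1968 FPKM. The others were Rpl29 (96.2%), Rpl34 (93.6%), Rps13 (92.9%), Rpl15 (92.3%), Rpl27 (91.3%), Rpl30 (89.7%), Rpl21 (76.3%), Rps2 (68.9%), Rpl13 (57.6%) and Rpl5 (51.0%). For Rpl34 most of the level stood in Rpl34-ps1 (849 and 646 FPKM), and for Rpl30 in Gm12191 (1040 and 902 FPKM).

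At the low end the family sums lay closer together than the members. The highest family in PB was Rps2 with 5436 FPKM when summed, where from the members alone it was Rps26 with 3085 FPKM. With all rows summed the lowest family in PB was Rps15a with 70.8 FPKM, where from the members alone it was that of Rpl3 and Rpl3l with 3.70 FPKM. Of the 77 families 71 families reached 500 FPKM when summed against 60 from the members alone. Whether these rows hold transcripts of their own or fragments of the canonical gene was not tested. The table gives no coordinates, so the place of a predicted model in the genome is not analysed here.

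**Figure D2:**
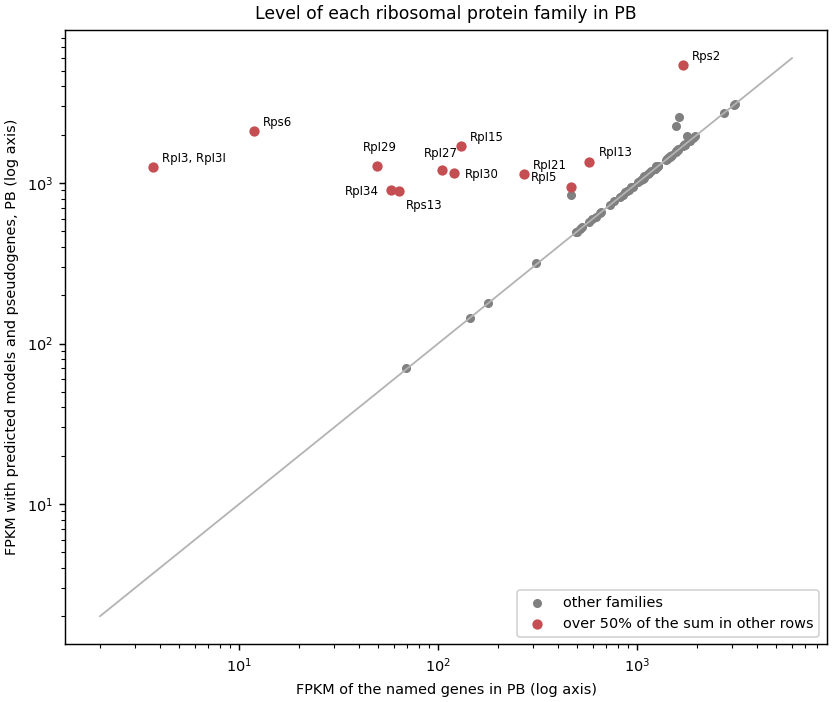
FPKM in PB of each of the 77 ribosomal protein families, from the named genes alone (x axis) and with predicted models and pseudogenes of the same KEGG number added (y axis), both on log axes. The line marks equal values, and the 12 labelled families have over 50% of their sum in the added rows.

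The comparison of the libraries asked how the ribosomal protein genes differ when polyadenylated TERRA is expressed. Most were lower in PB-TERRA, by a small amount. Differences are given as the log2 ratio of FPKM + 0.1, PB-TERRA over PB, for genes with at least 1 FPKM in 1 library or both, which 84 of the 85 members and 12263 genes in all passed. The median log2 ratio of the 84 members was -0.11, which is a median difference of -7.03%, and the median of all genes was -0.0044. The quartiles of the members were -0.20 and -0.03, and their values ran from -0.46 to 0.12. The SD was 0.13 across members and 0.31 across all genes past the filter, many of which have far fewer fragments.

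Of the 84 members, 70 were lower in PB-TERRA, where 50.9% of all genes were lower. The other 14 were higher, where 48.6% of all genes were higher. A log2 ratio of at most -0.1 was found for 44 members and for 27.4% of all genes, and one of at least 0.1 for 2 members and 25.2% of all genes. No member reached a log2 ratio of 1 in either direction, which 0.913% of all genes did. Genes are not independent replicates, and with 1 library per condition these counts describe the libraries.

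The depth behind these values was large. The spacing of the lowest FPKM values gave about 24700000 fragments in PB and 24800000 in PB-TERRA, of which the members held about 1327864 and 1232175. A member past the filter had at least 100 fragments in PB and 88 in PB-TERRA. The exact binomial (Clopper-Pearson) 95% interval of the log2 ratio covers counting error only, not the scaling of the libraries. On the values as deposited it lay below 0 for 59 members (17.5% of all genes), above 0 for 7 members (18.1% of all genes) and held 0 for the other 18. Summed over members, the log2 ratio of fragments per library was -0.115, with an interval from -0.119 to -0.111.

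The sum of the member FPKM values had a log2 ratio of -0.11, and that of all other genes -0.02. The table sum was 497560 FPKM in PB and 484632 FPKM in PB-TERRA. The difference of 12928 FPKM was made up by the members to 47.9%. When both libraries were rescaled to the same summed FPKM, the median member log2 ratio was -0.07 and 60 of 84 members were lower. The log2 ratio of the member sum was then also -0.07. The share of all genes lower at this scaling is not given here, and the 50.9% above is for the deposited values. A counting interval does not cover such a shift, and 16 of 36 named members moved beyond theirs.

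**Figure D3:**
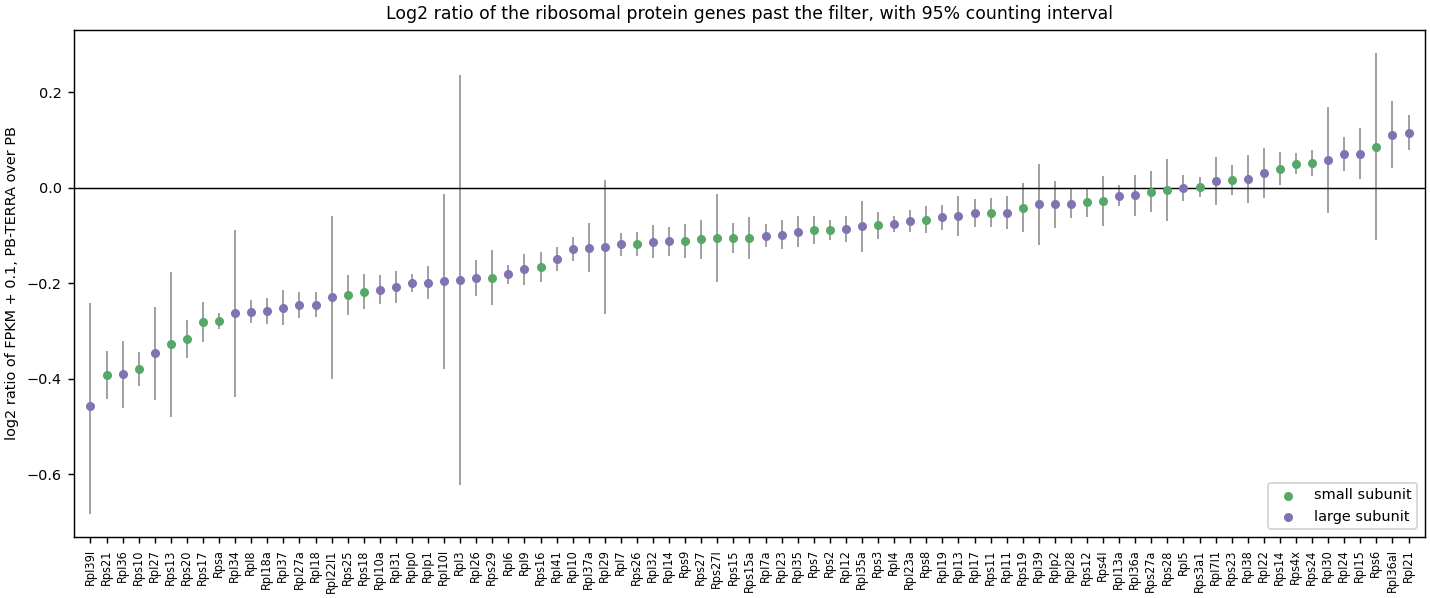
Log2 ratio of FPKM + 0.1, PB-TERRA over PB, of the members past the filter (1 of 84 not shown) in rising order, with the exact 95% counting interval as a line and the subunit as colour. Small subunit genes run from -0.39 to 0.08 and large subunit genes from -0.46 to 0.12, and most intervals lie below 0.

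Gene length moved with the result. Members are short, with a median model length of 740 bases against 2606 bases for all genes of the table, and the log2 ratio was lower for short genes in general. Across 8413 other genes of at least 5 FPKM in both libraries, the shortest of 50 length bins had a median log2 ratio of -0.04 and the longest 0.08, and Spearman's rho with length was 0.24 across genes of these libraries. The 5 shortest bins, up to 1095 bases, held 67 members, and the other genes in them had a median log2 ratio of -0.05. With the median of the length bin taken off, the median member log2 ratio was -0.05, 58 members were lower and 26 higher. The median of all genes past the filter was then -0.0018. With GC content and length taken off together, a setting chosen after seeing the data, it was -0.06, with 55 lower and 29 higher. The part of length in the result beyond these values was not tested.

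**Figure D4:**
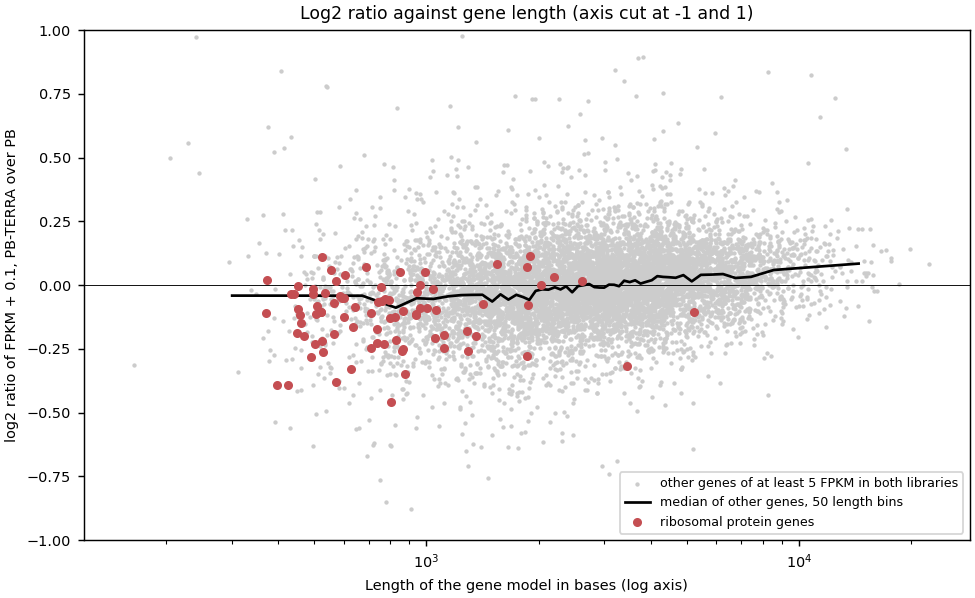
Log2 ratio of FPKM + 0.1, PB-TERRA over PB, against the length of the gene model (log axis) for genes of at least 5 FPKM in both libraries. Grey points are other genes, the black line their median in 50 length bins and red points the members (without Rpl3 and Rpl3l, which lie under 5 FPKM). Most members lie among the shortest genes, and more of them lie below the line than above it.

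Among the members themselves, the 31 with a model of at most 600 bases had a median log2 ratio of -0.11 with 27 lower, and the 10 with a model of over 1500 bases a median of 0.01 with 5 lower. Of the 10, Rps6, Rpl15, Rpl21 and Rpl5 had over 50% of their family level in other rows. Their family sums had -0.08, -0.06, 0.03 and -0.11. Among the 31 this held for Rpl34 and Rpl30, whose family sums had -0.38 and -0.18. Spearman's rho across the 84 members was 0.06 with length, -0.01 with PB FPKM, -0.13 with GC content and 0.06 with the share of 50-base stretches of the transcript that also occur in other genes. These are descriptions across genes of the same libraries. The 33 members with a run of at least 8 pyrimidines within 25 bases of a start, on either side, had a median log2 ratio of -0.10. So had the 30 members past the filter without it. Such a run need not lie in the mRNA, so this is no comparison by TOP motif. The medians were -0.13 for the 26 members with CCGGAAG and -0.09 for the 37 past the filter without it. The 33 small subunit genes had a median of -0.10 with 27 lower, and the 51 large subunit genes past the filter a median of -0.11 with 43 lower.

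The lowest log2 ratio was that of Rpl39l, a paralog of the tunnel protein Rpl39 best known from testis. It had 23.7 FPKM in PB and 17.3 FPKM in PB-TERRA, or 404 and 295 fragments, and a log2 ratio of -0.46 with a counting interval from -0.68 to -0.24. Rps21 had 1043 and 795 FPKM and a log2 ratio of -0.39 (-0.44 to -0.34). Rpl36 had 497 and 379 FPKM and also -0.39 (-0.46 to -0.32). Rps10, a small subunit protein mutated in some patients with Diamond-Blackfan anemia, had 1264 and 971 FPKM and -0.38 (-0.42 to -0.34).

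Rpl27, a large subunit protein, had 105 FPKM in PB and 82.6 FPKM in PB-TERRA, a log2 ratio of -0.35 with an interval from -0.44 to -0.25. Rps13, which takes part in a contact between the subunits, had 63.3 and 50.4 FPKM and a log2 ratio of -0.33 (-0.48 to -0.18). These 6 values remained below -0.2 with the length bin median taken off. The predicted model of the Rps13 family, with 829 FPKM in PB and 825 FPKM in PB-TERRA, had a log2 ratio of -0.01, so that the family sum had -0.03. For Rpl27 the family sum had -0.24.

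The highest log2 ratio was that of Rpl21, with 269 FPKM in PB and 292 FPKM in PB-TERRA, 0.12 with an interval from 0.08 to 0.15. Rpl36al, an intronless paralog of Rpl36a, had 319 and 344 FPKM and 0.11 (0.04 to 0.18). Rps6 had 0.08 (-0.11 to 0.28), from 419 and 447 fragments. Rpl15, another gene of Diamond-Blackfan anemia, had 131 and 137 FPKM and 0.07 (0.02 to 0.12). Rpl24, which reaches from the large to the small subunit, had 886 and 930 FPKM and 0.07 (0.03 to 0.11). Rpl30 had 120 and 124 FPKM and 0.06 (-0.05 to 0.17).

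Of these 6, the sign turned for 3 when the rows of the family were summed. The family log2 ratio was -0.08 for Rps6, -0.06 for Rpl15 and -0.18 for Rpl30, and it was 0.03 for Rpl21. Over all 77 families, 68 were lower and 9 higher in PB-TERRA, 44 were at most -0.1 and 0 at least 0.1. The family median was -0.11 and the range from -0.39 to 0.07. The sum over families was 100600 FPKM in PB and 92164 FPKM in PB-TERRA, or 20.2% and 19.0% of the table, with a log2 ratio of -0.13.

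Rpl19, the internal control of the study's qRT-PCR, had 1467 FPKM in PB and 1405 FPKM in PB-TERRA. Its log2 ratio was -0.06 with a counting interval from -0.09 to -0.04. Rplp0, also known as 36B4, for which the study lists primers, had 1575 and 1372 FPKM and a log2 ratio of -0.20 (-0.22 to -0.18). With the libraries rescaled to the same sum the values were -0.02 and -0.16, and with GC content and length taken off they were 0.02 and -0.12, so that the sign of Rpl19 turned.

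The lists by position are read against the members as a whole, of which 70 of 84 were lower. As deposited, the 4 genes of the stalk and its base, which recruits elongation factors, were lower, from -0.20 in Rplp0 to -0.03 in Rplp2, with a median of -0.14. Rplp2, whose interval ran from -0.08 to 0.01, was above 0 on rescaling, with length taken off and with GC content and length taken off (0.0037, 0.0066 and 0.05), which left 3 of 4 lower. The 8 genes at the exit tunnel were lower as deposited, from -0.21 in Rpl31 to -0.03 in Rpl39, with a median of -0.07 (-0.03 with length taken off). Of these, 7 stayed lower on rescaling, 6 with length taken off and 5 with GC content and length taken off. Rpl39 turned under all 3 settings, Rpl17 with length taken off (0.04), and Rpl19 and Rpl35 with GC content and length taken off. Of 3 genes at the peptidyl transferase centre, Rpl8 had -0.26 and Rpl10 -0.13, and Rpl3 had -0.19 from 100 and 88 fragments, with an interval from -0.62 to 0.24. In the small subunit, 5 of 7 genes of the decoding site and mRNA channel were lower, with a median of -0.08 (-0.02 with length taken off) and the highest value in Rps14 (0.04), and 4 of 7 were lower under each of the 3 settings. Of 5 genes at contacts between the subunits 3 were lower, from Rps13 (-0.33) to Rpl24 (0.07), and 2 with GC content and length taken off.

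The Rpl5 and Rpl11 proteins form a particle with 5S rRNA and bind Mdm2, the ubiquitin ligase of p53, when ribosome assembly is disturbed. Rpl5 had 464 FPKM in both libraries, a log2 ratio of -0.00019 with an interval from -0.03 to 0.03. A predicted model of the Rpl5 family had 481 and 412 FPKM and a log2 ratio of -0.22, and the family sum had -0.11. Rpl11 had 1169 FPKM in PB and 1128 FPKM in PB-TERRA, a log2 ratio of -0.05 (-0.09 to -0.02), which was 0.03 with GC content and length taken off. The 5 listed Mdm2 binders, Rpl5 included, had a median of -0.08 and the lowest value in Rpl23 (-0.10). With length taken off their median was -0.02, and 4 of the 5 were lower under each of the 3 settings, Rpl5 having 0.04 on rescaling and 0.02 with length taken off. Of 18 genes mutated in Diamond-Blackfan anemia, 16 were lower, where 70 of all 84 members were. The median of the 18 was -0.10 (-0.06 with length taken off), beside -0.11 for the members, with a range from Rps10 to Rpl15. With rescaling, length, and GC content and length, 14, 14 and 12 of the 18 were lower, where 60, 58 and 55 of the 84 members were. Of the 4 X-linked genes 3 were lower as deposited, from -0.13 in Rpl10 to 0.05 in Rps4x, with a median of -0.03. Under each of the 3 settings Rpl10 alone was lower, and with length taken off the median was 0.02.

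The paralogs allow a comparison within a protein. Rpl39 and Rpl39l differ in few bases, as their coding sequences from GENCODE M21 on GRCm38 show, printed with the stop codon and with capitals at the bases that differ. Rpl39 lies at chrX:37082704-37085127 on the - strand with 3 coding exons and Rpl39l at chr16:10174310-10174462 on the + strand with 1 coding exon, both intervals without the stop codon.
Rpl39: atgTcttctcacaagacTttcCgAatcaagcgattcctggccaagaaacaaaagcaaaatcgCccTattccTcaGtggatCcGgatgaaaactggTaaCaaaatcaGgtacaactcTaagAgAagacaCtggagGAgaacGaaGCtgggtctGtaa
Rpl39l: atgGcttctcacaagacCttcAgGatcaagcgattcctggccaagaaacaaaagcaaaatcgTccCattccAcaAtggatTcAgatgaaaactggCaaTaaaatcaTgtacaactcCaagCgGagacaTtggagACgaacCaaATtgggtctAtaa

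Of 156 bases 133 were identical, and of 51 residues 48. No stretch of 50 bases was shared between the transcripts of any of the 8 pairs. Rpl39 had 286 FPKM in PB and 279 FPKM in PB-TERRA, a log2 ratio of -0.03 (-0.12 to 0.05). Rpl39l made up 7.66% of the pair in PB and 5.82% in PB-TERRA, and its log2 ratio was 0.42 below that of Rpl39.

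Rpl22l1, a paralog of Rpl22, had 63.9 FPKM in PB and 54.5 FPKM in PB-TERRA, a log2 ratio of -0.23 (-0.40 to -0.06). Rpl22 had 114 and 116 FPKM and a log2 ratio of 0.03 (-0.02 to 0.08). The share of Rpl22l1 in this pair was 35.9% and 31.9%, the highest share of a paralog among the 8 pairs in both libraries.

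Rpl36al made up 25.9% of its pair in PB and 27.7% in PB-TERRA, where Rpl36a had 910 and 900 FPKM and a log2 ratio of -0.02. Rps4l had 295 and 289 FPKM, next to 1422 and 1473 FPKM of the X-linked Rps4x, with log2 ratios of -0.03 and 0.05. Rps4l was above 0 on rescaling (0.01), with length taken off (0.02) and with GC content and length taken off (0.08). For the shared stretches of Rps4l, GENCODE transcripts not marked as coding were allowed, and whether it makes a protein was not tested. Rps27l, a target gene of p53, had 199 and 185 FPKM and a log2 ratio of -0.11, the same to 2 decimals as that of Rps27 (1548 and 1436 FPKM). Rpl7l1 had 104 and 105 FPKM and a log2 ratio of 0.01, where Rpl7 had 1330 and 1225 FPKM and -0.12.

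Rpl10l, which replaces the X-linked Rpl10 in male meiosis, had 21.2 FPKM in PB and 18.5 FPKM in PB-TERRA, a log2 ratio of -0.19 (-0.38 to -0.01), next to 1549 and 1417 FPKM of Rpl10. Rpl3l, the form of heart and skeletal muscle, was the only member below the filter, with 0.44 and 0.17 FPKM from about 13 and 5 fragments. Its log2 ratio was -1 with an interval from -3.23 to 0.19.

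The canonical genes outside the rule were not all lower. Fau, which encodes a ubiquitin-like protein fused to a small subunit protein, had 654 FPKM in PB and 666 FPKM in PB-TERRA, a log2 ratio of 0.03 (-0.02 to 0.07). Rack1, a scaffold on the small subunit, had 1254 and 990 FPKM and -0.34 (-0.36 to -0.32).

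Lists of other genes of protein synthesis hold longer gene models than the members, so their medians are given as measured and with the length bin median taken off, where that of the members was -0.05. Of 17 other TOP mRNAs in the table, among them elongation and initiation factors, Fau and Rack1, 10 were lower, with a median of -0.04 (0.01 with length taken off) and a range from Rack1 to Hnrnpa1 (0.08). Of 29 ribosome biogenesis factors 19 were lower, with a median of -0.04 (-0.03) and a range from Ltv1 (-0.19) to Nop58 (0.10). Of 11 genes of RNA polymerase I and its factors 5 were lower, with a median of 0.01 (-0.02) and a range from Polr1e (-0.15) to Rrn3 (0.11). Of 14 mTORC1 and TOP regulators 8 were lower, with a median of -0.05 (-0.04), from Tsc1 (-0.16) to Larp4 (0.17), and Larp1 had -0.04. With length taken off, the biogenesis factors and the mTORC1 and TOP regulators thus lay within 0.02 of the members.

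The 77 mitochondrial ribosomal protein genes, which are of a similar kind but serve another ribosome, ran from -0.38 to 0.17 and had a median log2 ratio of -0.05 with 55 lower, and 0.01 with the length bin median taken off. Of the 39 proteasome genes past the filter 26 were lower, with a median of -0.03, and 0.02 after the same step. No test of the difference from the cytosolic genes is possible with these libraries.

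**Figure D5:**
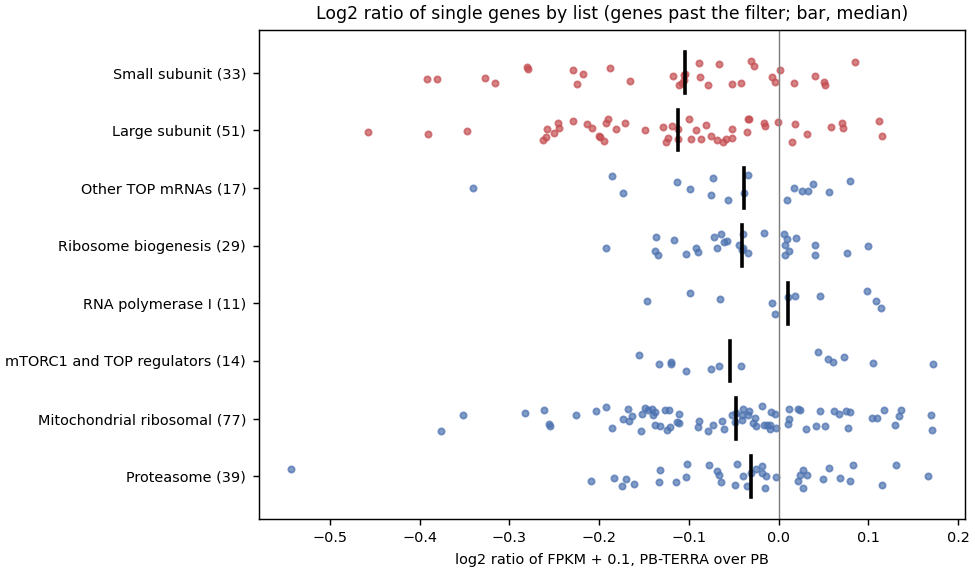
Log2 ratio of FPKM + 0.1, PB-TERRA over PB, of single genes past the filter in the lists named on the y axis, with the number of genes in brackets and a bar at the median. The medians of both cytosolic subunits (-0.10 and -0.11) lie below those of the other lists, whose gene models are longer, and the single genes of all lists overlap.

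The labelled cell type was checked with its markers. All 10 mESC markers were past the filter, from Tfcp2l1 (27.0 FPKM in PB and 34.1 FPKM in PB-TERRA) to Dppa5a (1163 and 1040 FPKM), and their sum was 3323 and 3183 FPKM. Of the 10, 5 were lower and 5 higher in PB-TERRA, with 4 intervals below and 4 above 0 and a median log2 ratio of 0.01. The sum of the 5 of 7 primitive endoderm markers past the filter was 10.01 and 13.78 FPKM, with all 5 higher in PB-TERRA. Of these, Pdgfra (0.51 and 1 FPKM) passed the filter in PB-TERRA alone. Below the filter Sox17 had 0.32 and 0.40 FPKM (0.25, -0.45 to 1.19) and Foxa2 0.17 and 0.47 FPKM (1.08, 0.30 to 2.89). The sum of the 4 of 8 fibroblast markers past the filter was 19.01 and 22.95 FPKM, with Col1a1 at 7.99 and 12.1 FPKM (log2 ratio 0.60, interval 0.50 to 0.71) and Col1a2 at 0.92 and 1.37 FPKM (0.53, 0.22 to 0.92). Thy1, the highest of them in PB, had 9.16 and 8.39 FPKM (-0.13, -0.34 to 0.09) and Pdgfrb 0.94 and 1.05 FPKM (0.15, -0.20 to 0.52). Col1a2 and Pdgfrb passed the filter in PB-TERRA alone. The other 4, Col3a1, Lum, Dcn and Postn, were below 0.5 FPKM in both libraries, and Col3a1 had 0.21 and 0.47 FPKM (0.88, 0.50 to 1.86), where the other 3 had at most 17 fragments in a library. The 5 of 6 trophectoderm markers past the filter summed to 284 FPKM in both libraries, mostly Krt8 and Krt18, with Elf5 at 0.02 and 0.06 FPKM. Among the others Cdx2 had 1.19 and 2.13 FPKM (0.79, 0.36 to 1.31), Eomes 6.13 and 5.05 FPKM (-0.27, -0.46 to -0.10) and Tfap2c 21.9 and 18.6 FPKM (-0.24, -0.35 to -0.13). The part of these cell types in the ribosomal protein values was not tested. In bulk RNA a lower level of a gene in all cells and fewer cells that express it cannot be told apart.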

How the data were processed

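The authors made 1 library from each culture (PB, PB-TERRA) with the TruSeq RNA LT v2 kit and sequenced it on a BGISEQ-500. Their processing notes name HISAT, Cufflinks and mm9, without versions or roles. The authors deposited 1 table of expression values, read here as FPKM from their range and spacing, since the header names no unit. It also holds the authors' fold changes, p-values, adjusted p-values and up or down calls, which were not used.

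Log2 ratios of FPKM + 0.1 were computed for genes of at least 1 FPKM in 1 library. Fragments were estimated from FPKM, the step between low values and the gene length less 114 bases, a fitted value. The depth estimate, the log2 ratio and the counting interval were tested on simulated data. The rescaling, the length and GC steps and the family sums were not. GC content, coding sequences and shared stretches came from GENCODE M21 (GRCm38), start sequences from RefSeq. Families were rows with the same KEGG number.

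The members and the gene lists were chosen with earlier results of these data known. The 8 highest members by mean FPKM, the 6 highest and 6 lowest by log2 ratio, Rpl19, Rplp0, the paralog pairs, the member below the filter and the extremes of each list were named by rule. Other genes were named after their values were seen. The values of 1 member and of 1 gene outside the rule are not reported here on their own. Alternatives were the pseudocount, the filter, the scaling, gene length and the choice of members. Python 3.11.15, numpy 2.4.6, pandas 2.3.3 and scipy 1.17.1 were used.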

Additional observations from a re-analysis of the deposited data

How the results depend on the processing

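With 1 library per condition, no replicate could be left out, and differences between cultures cannot be told from those between conditions. No paired analysis was possible because each condition has 1 library and no result comes from a test. The median log2 ratio of the members and the log2 ratio of their sum were negative under all alternatives run. Rescaling both libraries to the same summed FPKM gave a median of -0.0671, 24 members higher and a sum ratio of -0.0747. Taking off the median of genes of similar length gave -0.0479, 26 higher and -0.0646, and turned the difference of the small and large subunit medians from 0.0071 to -0.0196. GC content with length, added after seeing the data, gave -0.0616, 29 higher and -0.0549. Summing protein families, also added afterwards, gave 9 higher and -0.13. Centring on the median of all genes gave a sum ratio of -0.11. Without the filter 1 member, Rpl3l, reached an absolute log2 ratio of 1, on about 13 and 5 fragments. Of the 84 members past the filter, the sign turned from lower to higher for 10 on rescaling, for 12 with length and for 15 with GC content and length, Rpl19 among the last, and for none the other way. Of 36 named members, 16 moved beyond their counting interval on rescaling, 17 with length and 16 with GC content and length. The cause of these shifts was not tested.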

Other observations

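Of the 137 rows that share a KEGG number with a ribosomal protein gene but are no members, 61 passed the filter of 1 FPKM, and 46 of these were lower in PB-TERRA and 15 higher. Their median log2 ratio was -0.16, and 8 of them were past an absolute log2 ratio of 1, as were 0.913% of all genes. Of these 8, 5 had at most 21 fragments in either library. A row passed the filter on 1 library, so some of the 8 passed only where they were high. A predicted model with the KEGG number of Rpl21, for example, had 0.01 FPKM in PB and 1.64 FPKM in PB-TERRA. The 8 also hold a pair of predicted models of 746 bases with the KEGG number of Rps2. These had 11.9 and 0.01 FPKM in PB, and each had 4.53 FPKM and 71 fragments in PB-TERRA. Whether the pair is 1 transcript was not tested. The highest of the 61 in PB was a predicted model of 443 bases with the KEGG number of Rps2. It had 3480 FPKM in PB and 2937 FPKM in PB-TERRA, a log2 ratio of -0.24 with a counting interval from -0.27 to -0.22. Its level in PB was above that of every member. Rps2 itself, which lies at the mRNA entry channel, had 1692 and 1592 FPKM and a log2 ratio of -0.09.

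Members differed in how much of their transcript other genes share. The 9 members past the filter with under 10% of 50-base stretches shared had a median log2 ratio of -0.19, with 7 lower in PB-TERRA. The 14 members with over 70% shared had a median of -0.06, with 10 lower. Among all 84 members 70 were lower, and Spearman's rho of the log2 ratio with the shared part was 0.06. The median of the 9 was the value of Rpl10l. Rps20 and Rps15a, both under 10%, have the longest gene models of the members, 3446 and 5224 bases. Rps20 had 144 and 116 FPKM and a log2 ratio of -0.32, and Rps15a had 68.9 and 64.1 FPKM and -0.10. Both groups were drawn after the values were seen and carry no test.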
